A study of Mus musculus with 6 samples.

Results

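The ribosome biogenesis factor genes described here are 54 protein-coding genes that were chosen by their known role, as listed gene symbols. The list uses no measured value, but it was drawn up with earlier results of these data known. The members fall into 8 genes of the RNA polymerase I machinery, 6 genes of snoRNP proteins (the protein parts of small nucleolar RNA particles), 5 nucleolar organisers, 21 small subunit processing factors and 14 large subunit processing factors. Each of the 54 symbols matched a single row of the 55401 gene rows in the table, and all 54 were among the 17573 genes that passed the filter on low counts. Their counts per library ran from 320 to 45325.

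The cells were mouse embryonic stem cells (ESCs) of the 129/Ola line, grown in serum with leukemia inhibitory factor. Their titles name an auxin-inducible degron (AID) on ZFP207, a zinc finger protein also known as BuGZ, which binds kinetochores and spindle microtubules and which the series studies as a partner of the splicing particle U1 snRNP. A degron is a tag through which the auxin IAA sends a protein to the proteasome. The 3 control libraries had no IAA (AID 0h, genotype label WT) and the 3 depleted libraries had IAA for 5 h (AID 5h, with a genotype label that names the loss of ZFP207). If the label WT means that the control cells carried no tag, the groups also differ in cell line, and a library of untagged cells with IAA was not analysed here. Neither the clone nor the protein left after IAA is given in the sources used here. Each library holds RNA that had taken up 4-thiouridine (4sU), a uridine analogue that marks RNA made during a labelling period, so precursors of mRNA weigh more in it than in the whole RNA pool.

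Ribosomes are assembled mainly in the nucleolus. RNA polymerase I transcribes a long precursor from the ribosomal RNA genes, and snoRNPs guide its chemical modification while processing factors fold it, cut it and load it with ribosomal proteins. The small subunit is shaped within a large particle called the small subunit processome, and the large subunit matures through nucleolar, nucleoplasmic and cytoplasmic steps before both subunits join in translation. Fast-dividing cells such as ESCs make many ribosomes, and many of the genes for these factors are known targets of the transcription factor MYC. The measurements below are of the RNA of these genes and not of rRNA processing or of ribosome number.

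The libraries held 14336811 to 25916628 counts. The 54 genes together took 1.36 ± 0.0363% of them in the controls and 1.38 ± 0.0384% after depletion (mean ± SD, n = 3). Libraries with the same replicate number deviated from their group means together, so each number was treated as a pair. The share was slightly higher in the depleted library of each pair. It went from 1.394 to 1.414% in pair 1, from 1.323 to 1.338% in pair 2 and from 1.372 to 1.375% in pair 3. This shift was not tested and was smaller than the SD within either group. Zfp207 RNA was at 545, 1116 and 548 CPM (counts scaled by each library's total and TMM factor) in control replicates 1 to 3 and at 695, 1467 and 596 CPM after depletion, which says nothing of the protein that the degron acts on. Summed CPM of 10 ESC markers ran from 4383 to 5098 in controls and from 4813 to 5471 after depletion, and that of 10 fibroblast feeder markers from 6.34 to 10.9 and from 2.99 to 5.96, with Postn, Col3a1, Lum and Dcn at 0. Primitive endoderm markers (8 genes) summed to 120.0–178 CPM in controls and 136–193 CPM after depletion. Early mesoderm and neural markers (8 genes) summed to 26.1–36.1 and 26.6–42.2 CPM, with T at 0. Such sums follow the most abundant genes. In the paired edgeR fit described below, the 7 tested endoderm markers had a median log2 fold change of 0.77, with 6 above 0. The 6 tested mesoderm and neural markers had a median of 0.40, with 5 above 0. That fit called 0 of either set, beside 12.9% of all genes. The 10 ESC markers had a median of 0.13, with 8 above 0, and 2 of them were called higher, beside 4.96% of all genes. In these bulk libraries, fewer cells of a type and less RNA per cell cannot be told apart.

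Within replicate pairs, 6 of the 54 genes rose and 5 fell after ZFP207 depletion, and the changes were small. Nop16, Noc4l, Taf1d, Utp4, Noc2l and Pes1 rose by 0.26 to 0.56 on the log2 scale, and Nmd3, Wdr75, Wdr36, Bms1 and Nop58 fell by 0.25 to 0.61. These 11 calls (20.4% of the members) come from edgeR's quasi-likelihood test with the replicate pair as a block, at a Benjamini-Hochberg adjusted p under 0.05 over all genes tested. The same fit called 12.9% of all genes, 4.96% as higher and 7.9% as lower. Shares over all genes, here and below, are not matched for expression level, and all genes include genes at a lower CPM than any member. Without the block, the same test called 0 of the 54 members and 0.791% of all genes, and the members' adjusted p-values ran from 0.218 to 0.996. Before adjustment, 4 members (Nmd3, Nop16, Taf1d and Utp4) had a p under 0.05 in that unpaired test, against 10.9% of all genes. DESeq2 without the block also called 0 members, beside 3.65% of all genes, and gave 5 members a p under 0.05 before adjustment, beside 12.6% of all genes. With the block, DESeq2 called 18 members, 13 higher and 5 lower, and these included all 11 of the edgeR calls in the same directions. It called 14.4% of all genes, 6.47% as higher and 7.97% as lower. The DESeq2 calls beyond the 11 were Nop56, Nolc1, Mybbp1a, Utp3, Tsr1, Nob1 and Nop2, all of them higher. Unless another fit is named, fold changes and calls below are those of the paired edgeR fit. Fold changes are given as log2 of depleted over control.

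Most of the members lay slightly above 0. The paired fold change was above 0 for 36 of 54 members, against 52.0% of all genes, and its median was 0.13 over the members and 0.02 over all genes. By pair, the members' median was 0.07, 0.17 and 0.08 in pairs 1 to 3, beside -0.01, 0.05 and -0.01 for all genes. A gain in all 3 pairs was seen for 27 of the 54 members (beside 24.2% of all genes) and a loss in all 3 pairs for 11 (20.4%, beside 24.1%). The 3 depleted libraries all lay above the 3 controls for 9 of the 54 members, beside 6.94% of all genes. These 9 were Polr1a, Polr1d, Polr1e, Taf1d, Utp4, Rrp12, Tsr1, Nop16 and Bop1. All 3 lay below the controls for 2 of the 54 (Wdr3 and Nmd3), beside 11.8% of all genes. For the other 43 members the groups overlapped. Among the members whose groups did not overlap, the intervals of Polr1a, Polr1d, Polr1e, Taf1d, Tsr1, Bop1, Wdr3 and Nmd3 share bases with other annotated genes. These include Fbxo10 at Polr1e, Srr at Tsr1, Mroh1 and Scx at Bop1, and Spag17 and Gdap2 at Wdr3. Reads there may have been divided among genes.

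**Figure D1:**
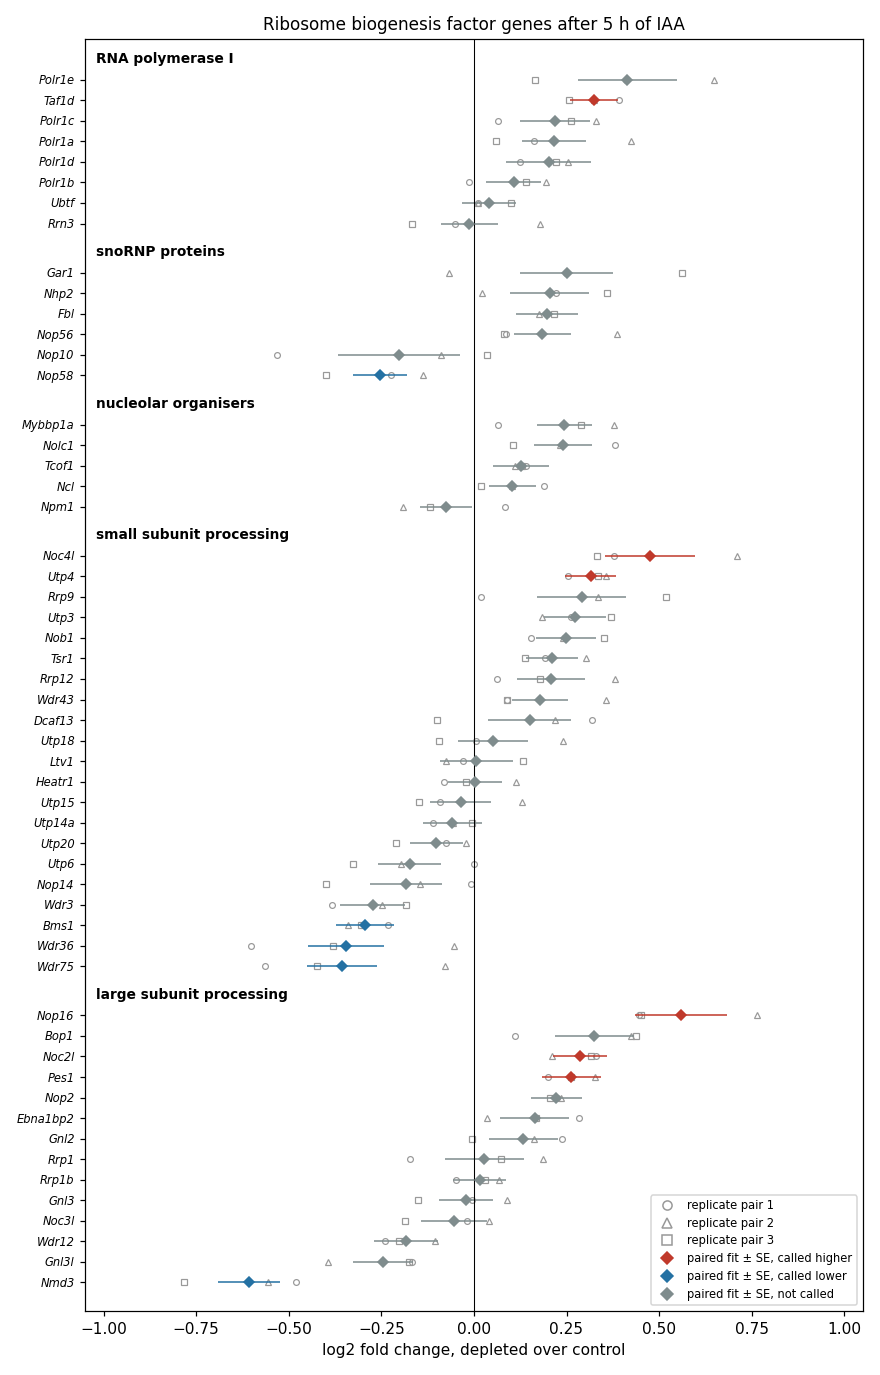
Log2 fold change of each of the 54 genes, depleted over control, in the paired edgeR fit, with 1 standard error as bars and the 3 single pairs as open symbols, grouped by role, called higher in red and called lower in blue. Polymerase I genes sit at or above -0.01, while the processing factors of both subunits spread to both sides of 0, from -0.61 for Nmd3 to 0.56 for Nop16.

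RNA polymerase I genes had a median fold change of 0.21, and 1 of the 8 (Taf1d) rose. TAF1D is a subunit of SL1, the factor that brings polymerase I to the rRNA gene promoter. Taf1d was at 967, 844 and 981 CPM in control replicates 1 to 3 and at 1269, 1056 and 1173 CPM in the depleted ones. Every depleted library lay above every control, and the log2 fold change was 0.32 (SE 0.065, paired adjusted p = 0.00624, unpaired 0.435). The Taf1d interval also overlaps snoRNA genes and the genes 4931406C07Rik and Cep295, and reads of overlapping genes may have been divided among them. Polr1e, a subunit of the polymerase, stood at 35.2, 26.4 and 31.8 CPM in controls and at 47.0, 41.6 and 35.7 CPM after depletion. These groups did not overlap either, but the fold change of 0.41 missed the threshold (paired adjusted p = 0.0613). Polr1a, the largest subunit, and Polr1d, a small subunit shared with RNA polymerase III, did not overlap between groups (0.22 and 0.20, adjusted p = 0.128 and 0.280). Polr1c, another shared subunit, had 0.22, the core subunit gene Polr1b 0.11, the gene Ubtf of the upstream binding factor 0.04, and Rrn3, whose product makes the polymerase competent to start, -0.01. None of these 4 was called.

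Among the snoRNP proteins, 1 of 6 fell (Nop58) and none rose, with a median of 0.19. NOP58 and NOP56 are the paired core proteins of box C/D snoRNPs, in which fibrillarin (Fbl) methylates the rRNA. Nop58 was at 475, 571 and 449 CPM in controls and at 407, 519 and 340.1 CPM after depletion, a fall of 0.25 (SE 0.073, paired adjusted p = 0.0387). It was lower in all 3 pairs, but depleted replicate 2 exceeded control replicates 1 and 3, so the groups overlapped. Nop56 went from 612, 399 and 596 CPM to 651, 522 and 631 CPM (0.18, adjusted p = 0.137) and Fbl changed by 0.20 (adjusted p = 0.144). The ratio of Nop56 to Nop58 was higher after depletion by 0.31, 0.52 and 0.48 (log2) in pairs 1 to 3. This ratio, like the others given below, was chosen after the values were seen and has no test. Of the box H/ACA proteins, which guide the conversion of uridine to pseudouridine, Gar1 stood at 0.25, Nhp2 at 0.20 and Nop10 at -0.20, none of them called. Nop10 had 28.4, 21.2 and 21.1 CPM in controls and 19.5, 19.9 and 21.7 CPM after depletion, so that the groups overlapped.

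None of the 5 nucleolar organisers was called in the paired edgeR fit, and their median was 0.13. DESeq2 with the block called 2 of the 5, Nolc1 and Mybbp1a, as higher. Nucleolin (Ncl), which binds the rRNA precursor, had 1716, 1925 and 1674 CPM in controls and 1957, 2068 and 1696 CPM after depletion. Nucleophosmin (Npm1), the main protein of the granular part of the nucleolus, had 1377, 1464 and 1397 CPM and then 1459, 1283 and 1285 CPM. Both pairs of groups overlapped, at fold changes of 0.10 and -0.08. Tcof1, whose product treacle supports polymerase I transcription, stood at 0.13. Nolc1, which encodes a chaperone of snoRNPs, and Mybbp1a, which encodes a nucleolar MYB-binding protein, stood at 0.24 each and were higher in all 3 pairs, just outside the threshold (adjusted p = 0.0629 and 0.0505).

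Of the 21 small subunit factors, 2 rose (Noc4l and Utp4) and 3 fell (Wdr75, Wdr36 and Bms1), with a median of 0.01. UTP4 belongs to the UtpA complex, the first part of the processome to bind the new precursor. Utp4 was at 336, 282 and 289 CPM in controls and at 401, 361 and 365 CPM after depletion, without overlap (0.32, SE 0.069, paired adjusted p = 0.0107, unpaired 0.443). Another UtpA gene moved the other way. Wdr75 was at 189, 189 and 166 CPM in controls and at 128, 179 and 124 CPM after depletion (fell by 0.36, SE 0.095, adjusted p = 0.0277). Its change was much smaller in pair 2 than in the others, and depleted replicate 2 lay above control replicate 3. The ratio of Utp4 to Wdr75 was higher by 0.67 ± 0.207 on the log2 scale after depletion (mean ± SD over 3 pairs). The other UtpA genes, Heatr1, Utp15 and Wdr43, stood at 0.00, -0.04 and 0.18 and were not called.

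Utp4 is shown with 30 bases of RefSeq sequence (GRCm38.p6) that hold the E-box CACGTG, the site type that MYC and other basic helix-loop-helix factors bind, because it is a gene that rose and carries this site. The stretch lies at chr8:106893643-106893672 on the plus strand, capitals mark the E-box, and its first base is base 16 of the transcript.
Utp4: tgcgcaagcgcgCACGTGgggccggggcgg

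The UtpB complex, which follows UtpA onto the precursor, had 1 of 4 listed genes lower. Wdr36 was at 145, 143 and 128 CPM in controls and at 95.0, 138 and 98.6 CPM after depletion, a fall of 0.35 (SE 0.103, adjusted p = 0.0427). Pair 2 again changed least, and the groups overlapped. The gene 4930455D15Rik overlaps Wdr36. Wdr3, also of UtpB, went from 106, 113 and 97.8 CPM to 81.2, 94.7 and 86.0 CPM without overlap, but was not called (-0.27, adjusted p = 0.0601). Utp6 and Utp18 stood at -0.17 and 0.05.

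BMS1 is a GTPase that acts within the processome. Bms1 was at 128, 227 and 120.1 CPM in controls and at 109, 179 and 97.2 CPM after depletion (fell by 0.29, SE 0.078, adjusted p = 0.0275). Replicate 2 was the highest library of both groups, and the paired loss was seen in all 3 pairs although the groups overlapped. Without control replicate 2, the unpaired fold change of Bms1 was 0.05, against -0.30 with all libraries. Noc4l, which encodes a partner of NOP14, was at 43.6, 24.5 and 47.7 CPM in controls and at 56.8, 40.4 and 60.1 CPM after depletion, a gain of 0.48 (SE 0.122, adjusted p = 0.0227). Here replicate 2 was the lowest library of both groups, and the groups overlapped. Nop14 itself was lower in all 3 pairs but not called (-0.18, adjusted p = 0.243).

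The remaining 9 small subunit genes were not called. Rrp9, a protein of the U3 snoRNP, had 57.4, 42.9 and 43.5 CPM in controls and 58.2, 54.3 and 62.6 CPM after depletion (0.29, adjusted p = 0.133). Control replicate 1 lay above depleted replicate 2, so the groups overlapped. Utp3 at 0.27 and Nob1, the nuclease that makes the last cut of the small subunit RNA, at 0.25 were higher in all 3 pairs (adjusted p = 0.0508 and 0.0596). Tsr1 and Rrp12, which act in late maturation and in export, did not overlap between groups (both 0.21, adjusted p = 0.0652 and 0.161). The late factor Ltv1 stood at 0.01, Dcaf13 at 0.15, Utp14a at -0.06 and Utp20, which has the longest interval of the members, at -0.10.

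Large subunit factors held the strongest changes in both directions, with 3 of 14 higher (Nop16, Noc2l and Pes1), 1 lower (Nmd3) and a median of 0.08. NMD3 is the adaptor through which the large subunit leaves the nucleus. Nmd3 was at 184, 232 and 186 CPM in controls (201 ± 27.2, mean ± SD, n = 3) and at 132, 158 and 108 CPM after depletion (133 ± 25.0). Every depleted library lay below every control, and the fall was 0.61 (SE 0.084, paired adjusted p = 0.0006, unpaired 0.218). NOP16 is a nucleolar protein of the early large subunit particle. Nop16 was at 38.9, 27.6 and 34.3 CPM in controls (33.6 ± 5.66) and at 53.1, 47.2 and 47.1 CPM after depletion (49.1 ± 3.41), again without overlap. Its gain was 0.56 (SE 0.123, paired adjusted p = 0.0110, unpaired 0.280). The ratio of Nop16 to Nmd3 was higher by 1.17 ± 0.209 on the log2 scale over the 3 pairs. The pseudogene Gm52662 overlaps Nmd3, and no listed gene overlaps Nop16.

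The sequences upstream of both genes are given since they changed most in opposite directions. For Nmd3 these are the 250 bases before the start, at chr3:69721805-69722054 on the plus strand. For Nop16 they are the 133 bases between its interval and that of Higd2a, at chr13:54590098-54590230, read on the minus strand towards Nop16. Both come from RefSeq (GRCm38.p6), and capitals mark the E-box, which lies 114 bases before the Nmd3 start. The Nop16 stretch holds no CACGTG.
Nmd3: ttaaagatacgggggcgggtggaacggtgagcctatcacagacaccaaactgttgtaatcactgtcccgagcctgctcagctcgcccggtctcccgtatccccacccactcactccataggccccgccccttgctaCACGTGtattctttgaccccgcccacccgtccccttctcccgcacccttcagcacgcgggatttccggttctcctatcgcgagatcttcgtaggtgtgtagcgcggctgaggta
Nop16: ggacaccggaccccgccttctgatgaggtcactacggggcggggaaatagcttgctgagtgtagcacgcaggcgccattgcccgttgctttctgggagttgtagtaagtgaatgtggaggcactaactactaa

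NOC2L works with NOC3L in moving early large subunit particles through the nucleus. Noc2l was at 221, 169 and 207 CPM in controls and at 279, 195 and 257 CPM after depletion (0.29, SE 0.073, adjusted p = 0.0229). It was higher in all 3 pairs, and the groups overlapped through replicate 2, the lowest library of both. Klhl17, Samd11 and Gm52691 overlap its interval. Noc3l stood at -0.05 and was not called.

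PES1, BOP1 and WDR12 form the PeBoW complex, which is needed for the large subunit RNA. Pes1 was at 129, 96.9 and 123 CPM in controls and at 149, 122 and 147 CPM after depletion (0.26, SE 0.080, adjusted p = 0.0492). It was higher in all 3 pairs, and depleted replicate 2 lay just under control replicates 1 and 3. Bop1 was at 61.8, 46.7 and 55.0 CPM and then at 66.7, 62.8 and 74.7 CPM, without overlap but outside the threshold (0.32, adjusted p = 0.0641). Wdr12 was lower in all 3 pairs and not called (-0.18, adjusted p = 0.183). The 3 genes of the complex therefore had fold changes of both signs. The log2 ratio of Pes1 to Wdr12 was higher by 0.44, 0.43 and 0.47 in pairs 1 to 3, the least variable of the 6 ratios computed. Pes1 is shown with the 30 bases around its E-box, at chr11:3963965-3963994 on the plus strand (GRCm38.p6), where the capitals start at base 3 of the transcript.
Pes1: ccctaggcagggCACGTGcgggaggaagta

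The other large subunit genes were not called. The rRNA methyltransferase gene Nop2 (0.22, adjusted p = 0.0505) and Ebna1bp2 (0.16) were higher in all 3 pairs, and the GTPase gene Gnl2 was at 0.13. The paralogues Rrp1 and Rrp1b stood at 0.03 and 0.02, and their ratio changed by 0.01 ± 0.127 (log2). The other paralogues were further apart. Gnl3, which encodes nucleostemin, stood at -0.02, and Gnl3l, lower in all 3 pairs, at -0.25 (adjusted p = 0.0674). Their ratio changed by 0.22 ± 0.236, no more than its spread between pairs.

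**Figure D2:**
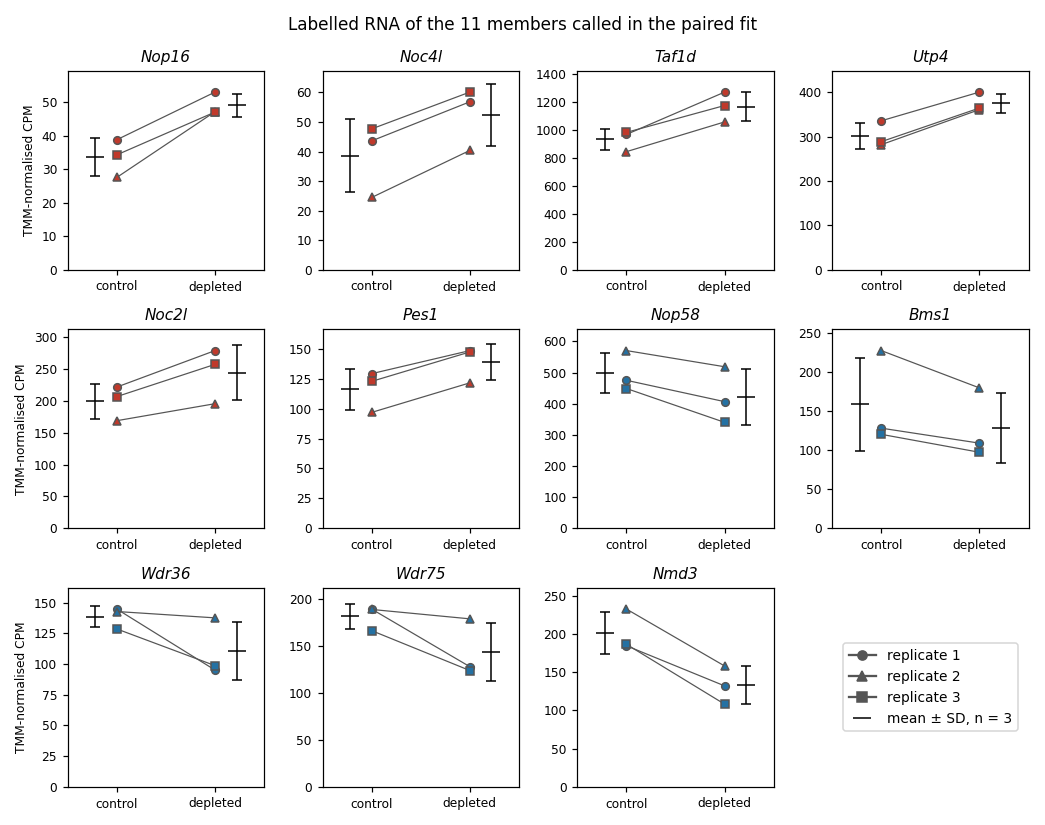
TMM-normalised CPM of the 11 called genes, on linear axes that start at 0, in the 3 control and 3 depleted libraries, with a line joining each replicate pair and the mean ± SD (n = 3) beside each group. Every line of Nop16, Taf1d, Utp4, Noc4l, Noc2l and Pes1 goes up and every line of Nmd3, Wdr75, Wdr36, Bms1 and Nop58 goes down, while replicate 2 lies apart for Bms1 and Noc4l in both groups.

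The calls did not rest equally on the pairs. Nmd3 and Taf1d were called with any pair left out. Nop16 missed the threshold without pair 2 (adjusted p = 0.0628) and Utp4 without pair 3 (0.0718). Without pair 1 and without pair 3, Noc2l, Nop58, Wdr36 and Wdr75 were not called, and Bms1, Noc4l and Pes1 were not called with any pair left out. The paired fit called 5, 7 and 3 members without pairs 1, 2 and 3, beside 1418, 1428 and 949 of all genes. Both counts were below those with all pairs, 11 members and 2259 genes. The low-count filter was applied anew in each of these fits, so shares are not given and no excess of members is read from these counts.

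Control replicate 2 stood apart from the other controls (first principal component of log2 CPM at 83.5, against -3.58 and -10.7), and many members shared that departure with depleted replicate 2. For each gene, the deviation of replicate 2 from the mean of replicates 1 and 3 was taken in each group on the log2 CPM scale. The 2 deviations had the same sign for 45 of 54 members (83.3%), 25 with replicate 2 lower and 20 with it higher, beside 71.8% of all genes. Their correlation was r = 0.85 across the 54 members and 0.50 across all genes, a description across genes that share the same libraries. The members and all genes were not matched for expression level. In controls the deviations of all genes spread more widely (SD 0.63) than those of the members (SD 0.32), so the gaps in r and in shared sign are not read as a trait of the members. Bms1 deviated by 0.87 and 0.80 in the control and depleted groups, Polr1c by -0.88 and -0.72, Noc4l by -0.88 and -0.53 and Nhp2 by -0.60 and -0.87. Among the 54 members the deviation was more positive for longer genes, with Spearman's rho of 0.58 in controls and 0.69 after depletion. These rho values were not computed over all genes, so they are not read as a trait of the members. Without control replicate 2, the members' unpaired median was 0.07, against 0.13 with all libraries. Spearman's rho between a member's mean deviation over both groups and its paired fold change was -0.71, a description of values that come from the same libraries. The part of replicate 2 in the fold changes was not tested.

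**Figure D3:**
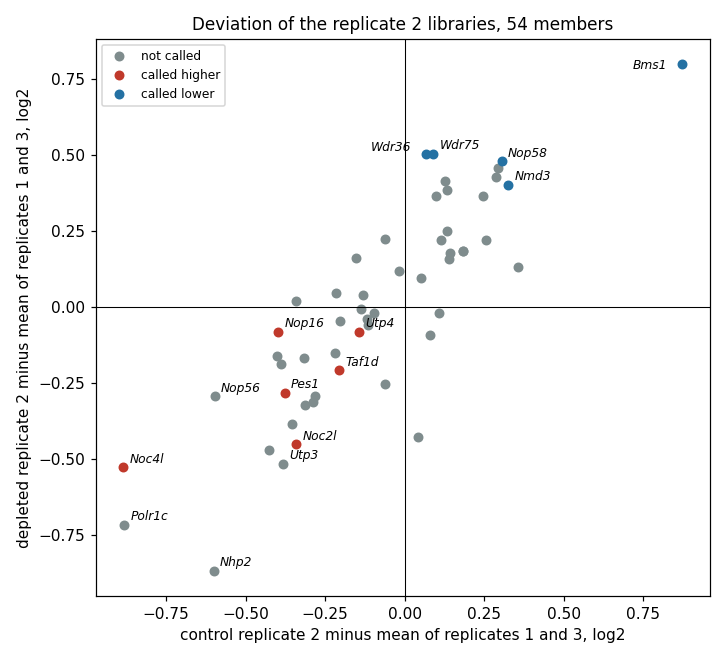
Deviation of replicate 2 from the mean of replicates 1 and 3 (log2 CPM) in the control group (x axis) and the depleted group (y axis), 1 point per member, called higher in red and called lower in blue. Points lie along the rising diagonal (r = 0.85), with Bms1 at the upper right and Noc4l, Polr1c and Nhp2 at the lower left.

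Gene length ran with the direction of change. The genomic intervals of the 5 members that fell spanned 26.6 to 36.4 kb (median 28.5 kb), and those of the 6 that rose 4.96 to 29.5 kb. Over the 54 members, Spearman's rho between length and paired fold change was -0.43, and by pair -0.40, -0.18 and -0.53, beside -0.23 over the 15362 tested genes with a length. Without control replicate 2 the members' unpaired rho was -0.16, without depleted replicate 1 it was -0.22 and without depleted replicate 3 it was -0.26, against -0.43 with all libraries. Members under 10 kb had a median fold change of 0.23 (12 genes, 2 higher), and those of 10 to 20 kb a median of 0.21 (15 genes, 3 higher). Those of 20 to 30 kb had a median of -0.17 (15 genes, 1 higher and 4 lower), and those of 30 kb or more one of 0.07 (12 genes, 1 lower). The medians of all genes in these classes were 0.14, 0.05, 0.01 and -0.09. Of all genes in these 4 classes, 5.89, 7.34, 7.23 and 3.5% were called higher and 2.41, 7.73, 11.6 and 13.5% lower. The members' class medians thus did not fall steadily from class to class as those of all genes did, although their rho was further from 0. Members of 30 kb or more ran from -0.29 for Bms1 to 0.22 for Polr1a, with 7 of the 12 above 0.

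**Figure D4:**
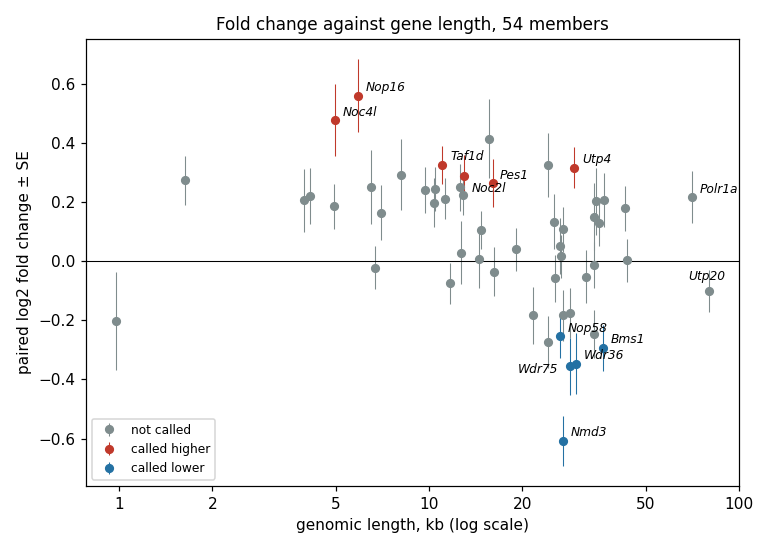
Paired log2 fold change of the 54 members against genomic length (kb, log axis), with 1 standard error as bars, called higher in red, called lower in blue and the rest in grey. The 5 called lower lie between 26.6 and 36.4 kb, and the 6 called higher between 4.96 and 29.5 kb.

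The intervals of 7 members (13.0%) hold annotated snoRNA genes, beside 3.01% of the tested genes with a length. That 3.01% counts a tested snoRNA gene as holding itself, so it is not a share of host genes alone. The 7 members that host snoRNAs are Taf1d, Nop56, Nop58, Ncl, Wdr43, Tsr1 and Gnl3. They include a gene that rose (Taf1d) and one that fell (Nop58), with a median of 0.18. The 6-base E-box CACGTG, which reads the same on both strands, was the single motif searched, in RefSeq windows from 250 bases before to 50 bases after the start. Of the 44 members with a window, 11 (25.0%) hold it, beside 11.7% of the 11163 tested genes with one. These are Rrn3, Mybbp1a, Utp4, Wdr43, Utp18, Utp20, Tsr1, Ltv1, Nop2, Pes1 and Nmd3. By window, the shares were 20.8% of the members' 53 windows, 9.88% of those of tested genes and 7.15% of all 32851 windows in the table. Members with the E-box had a median fold change of 0.18 (2 higher, 1 lower) and the 33 without it one of 0.11 (4 higher, 3 lower).

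Several members have a close neighbour, and the neighbours were looked up after the members' values were seen. An interval within 1000 bases that does not overlap was found for 22 members, and 17 of these have a tested neighbour, 19 neighbours in all. In the paired fit 2 of these 19 rose (beside 4.96% of all genes) and 3 fell (beside 7.9%). Higd2a, which encodes a mitochondrial protein, starts 133 bases from Nop16 and went from 5.52, 4.33 and 3.74 CPM to 18.9, 6.39 and 11.5 CPM, a gain of 1.34 (adjusted p = 0.0084). Both genes rose, without overlap between groups. Hsf1, the gene of the heat shock transcription factor, lies 112 bases from Bop1 and rose by 0.51 (adjusted p = 0.00652). Lgals8, the gene of a galectin, lies 508 bases from Heatr1 and fell by 1.51 (adjusted p = 0.00153), while Heatr1 stood at 0.00. The noncoding C130036L24Rik, 128 bases from Ncl, fell by 1.29 (adjusted p = 0.00149), and Xpo5, which encodes an exportin, 321 bases from Polr1c, fell by 0.32 (adjusted p = 0.0120). Ncl and Polr1c were not called. At Utp4 the neighbour Chtf8, 46 bases away, stood at -1.23 without being called (adjusted p = 0.280). It went from 234, 226 and 251 CPM to 142, 47.5 and 145 CPM, with depleted replicate 2 far below the other depleted libraries. The untested gene Derpc has the same interval as Chtf8, so reads there may have been divided between them.

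**Figure D5:**
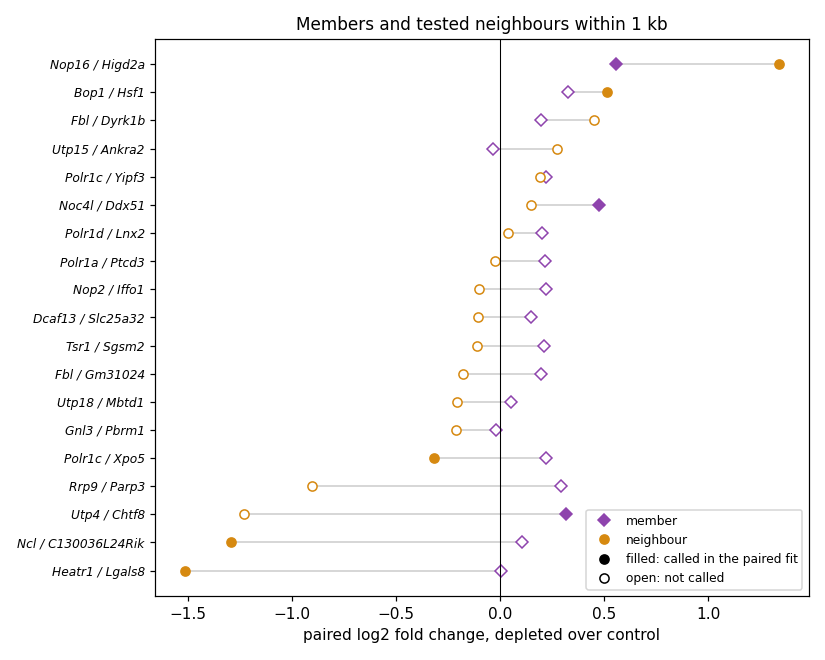
Paired log2 fold change of each member (diamond) and of its tested neighbour within 1000 bases (circle), 1 row per pair of genes, filled where the paired fit called the gene. Higd2a and Hsf1 in the top rows lie further right than Nop16 and Bop1, and Lgals8, C130036L24Rik and Chtf8 in the bottom rows lie at -1.51, -1.29 and -1.23.

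A second list of further ribosome biogenesis genes held 120 symbols, older and newer names of some genes among them. Of these, 110 matched a row and all 110 rows were tested, while the other 10 symbols matched none. The 110 genes included 9 that rose and 4 that fell in the paired fit (11.8%, beside 12.9% of all genes), with a median of 0.12. The unpaired fit called 0 of the 110 (beside 0.791% of all genes), with 5 under an unadjusted p of 0.05 (beside 10.9%). DESeq2 without the block called 1 (beside 3.65%). The largest falls were those of Utp11, Rpf2 and Nol10. Utp11, a small processome protein, went from 36.8, 37.2 and 36.9 CPM to 23.3, 17.5 and 16.6 CPM, without overlap (fell by 0.96, paired adjusted p = 0.00143, unpaired 0.0741). Its fall was larger than that of any of the 54 members. Rpf2, which helps to place the 5S particle, fell by 0.37 and Nol10 by 0.36. The helicase genes Ddx49 and Ddx27 rose by 0.43 and 0.41 and Tma16 by 0.42.

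The 79 genes of cytoplasmic ribosomal proteins, the products that these factors assemble, had a median of 0.20, and 77 of them were above 0. In the paired fit 6 rose (7.59%, beside 4.96% of all genes) and 0 fell (beside 7.9%), with Rpl27 at 0.46 (adjusted p = 0.00415) and Rpl12 at 0.31 (adjusted p = 0.0182). The unpaired fit called 0 (beside 0.791% of all genes), with 0 under an unadjusted p of 0.05 (beside 10.9%). DESeq2 without the block called 0 (beside 3.65%), with 1 under an unadjusted p of 0.05 (beside 12.6%). DESeq2 with the block called 17 of the 79 higher (beside 6.47% of all genes) and 0 lower. These shares over all genes are not matched for length either. All tested genes under 10 kb had a median of 0.14, with 3172 of 5063 above 0, and Rpl27 and Rpl12 span 3.35 and 2.33 kb. Myc was at 71.4, 52.7 and 70.3 CPM in controls and at 113, 77.2 and 84.1 CPM after depletion, a gain of 0.49 without overlap (paired adjusted p = 0.00782, unpaired 0.394). Mycn, its paralogue, was at 487, 288 and 346 CPM and then at 532, 413 and 379 CPM, with overlap, and was not called (0.26, adjusted p = 0.0627).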

How the data were processed

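Newly made RNA was measured in 3 control and 3 depleted libraries. The authors deposited estimated counts per gene as whole numbers, with 1 column per library whose name matches a sample title. The tools that the submitters' processing notes list are HISAT2 2.2.1, StringTie 2.2.1 and DESeq2 1.42.0, with mm10 as the build and no role for any of them. Strandedness is not given in the sources used here, so reads of overlapping or antisense genes cannot be told apart.

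The test was edgeR 4.0.16 (R 4.3.3) with filterByExpr by group, TMM and robust quasi-likelihood dispersions, over the 17573 genes left, and a call is a Benjamini-Hochberg adjusted p below 0.05. The planned fit had no block. Across genes, deviations from group means correlated at 0.27, 0.39 and 0.32 between libraries with the same replicate number and at -0.27 to -0.03 otherwise, so the numbers, which come from the titles, were taken as pairs, and a fit with the replicate block is given beside the planned one. Since deviations sum to 0 within a group, the values for different numbers are no separate evidence. Whether replicates were separate cultures is not stated, and p-values therefore cover only the spread among these libraries. Standard errors were derived from each fold change and its F value. DESeq2 1.42.0 was the other tool. Pair values and replicate deviations use log2 CPM. The fitting code was tested on simulated data.

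Members and lists were chosen with earlier results of these data known. Values per library are given for members called in either fit, the 3 members with the highest and the 3 with the lowest mean CPM, the 3 uncalled members with the largest unpaired change, Zfp207, Myc and Mycn, and some others beside them. The 3 called further pathway genes with the largest change in each direction are named. CPM is not corrected for transcript length, so levels of different genes are not compared. Coordinates and lengths come from RefSeq (GRCm38.p6), where all 54 members matched by symbol and 44 had a promoter window. Protein sequences and exon structures were not used here.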

Additional observations from a re-analysis of the deposited data

How the results depend on the processing

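With the replicate block, the edgeR test called 2259 genes, 11 members and 13 further pathway genes, where the unpaired test called 139, 0 and 0. DESeq2 without the block called 641, 0 and 1. Leaving out 1 library at a time, the unpaired test called 0 to 1 genes and 0 members. The members' unpaired median was 0.075 to 0.140 in these omissions, the lowest without control replicate 2. The fold change of Bms1 ran from -0.62 to 0.05 and reversed without control replicate 2, at 0.052. The other 10 called members kept their sign in each of the 11 alternatives to the unpaired fit. In the paired fit, leaving out pair 1, 2 or 3 gave 1418, 1428 and 949 genes, 5, 7 and 3 members and 4, 10 and 2 further pathway genes. Each of these fits had its own low-count filter, so the number of genes tested may differ. DESeq2 with the block, an alternative added after the data were seen, gave 2538 genes, 18 members and 18 further pathway genes. Other size factors and no filter on low counts left the members' unpaired count at 0. The cause of these differences was not tested. The 11 members were called only in fits with the pairs as a block.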

Other observations

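Of the RNAs that act in rRNA processing, 15 rows were tested, and the paired edgeR fit called 1 of them, Rnu3b3, a copy of the U3 small nucleolar RNA (fell by 2.64, adjusted p = 0.0112), which is 6.67% of the rows, beside 12.9% of all genes. The U3 genes are near-identical copies whose reads cannot be told apart with certainty, and the other 8 U3 rows, all uncalled, had fold changes from -1.07 to 1.97. Rmrp, the RNA of the nuclease RNase MRP, stood at -0.09 and was not called.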
